A study of Homo sapiens with 24 samples.

Results

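The m6A peaks of pancreatic progenitors that lack the demethylase ALKBH5 were described across genes. All peaks of the list called from the A5-KO PP immunoprecipitated (IP) and input libraries were taken, 55219 of the 228472 peaks in the 6 lists of the series. In m6A-seq, fragmented RNA is sequenced before (input) and after precipitation with an antibody against N6-methyladenosine, and stretches with more IP than input reads are called as peaks. The cells came from MEL1, a human embryonic stem cell line with an INS-GFP reporter, in which indels in the first exon of ALKBH5 had been made with CRISPR-Cpf1, and which had been differentiated to the pancreatic progenitor (PP) stage. The study made more than 1 knockout line, and the labels do not say which line or clone was sequenced. There were 2 IP and 2 input libraries. Wild-type MEL1 cells at the same stage (WT PP) were processed in the same batch, from total RNA with a Millipore antibody and a stranded total RNA kit, with depletion of rRNA stated for the input only. A further list of wild-type progenitors (PP) came from another batch with mRNA and a SYSY antibody. Each list was called on all libraries of its population together and gives pooled read counts, so that no spread between libraries could be computed, no test between populations was made, and intervals cover counting error only. Fewer cells of a type and less RNA per cell cannot be told apart in such bulk libraries.

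m6A is written on nascent RNA by a complex around METTL3 and METTL14, mostly at the consensus DRACH, where D stands for any base but C, R for a purine and H for any base but G, and is known to be frequent in long exons and around stop codons. ALKBH5 and FTO, members of the AlkB family of alpha-ketoglutarate-dependent dioxygenases, can remove it, and YTH domain proteins bind it and steer mRNA decay, splicing and translation. Pancreatic progenitors are defined by transcription factors such as PDX1, NKX6-1 and SOX9, which precede the endocrine, ductal and acinar lineages.

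Peaks on progenitor factors and the most enriched peaks are shown by a window of 30 nt around the DRACH site nearest to the middle of the peak. For the factors, the single-exon peak with the most input reads was taken. Capitals mark the DRACH site, the letters are the RNA strand written as DNA, 5′ to 3′, and coordinates are 1-based on GRCh38.
PDX1, CDS, chr13:27920315-27920344, plus strand: gggcagccccccGGACAtctccccgtacga
FOXA2, CDS, chr20:22582761-22582790, minus strand: cccgcgaccccaAGACCtacaggcgcagct
PROX1, CDS, chr1:213996925-213996954, plus strand: caactcttcaagAGACAgccccccagagtg
SOX9, 5UTR, chr17:72121081-72121110, plus strand: tttcaaccccggAAACTtttctttgcagga
HNF4A, 3UTR, chr20:44430652-44430681, plus strand: gcatagggtctgGAACAccaggctgaggtc
HES1, 3UTR, chr3:194138392-194138421, plus strand: agctgtattaagTGACTgaccatgcactat
ZNF326, CDS, chr1:90027656-90027685, plus strand: ggaagaacctgcTGACTtccctgttgagca
The PDX1 window held the form GGAC at this site, and the others another form of DRACH. A site of this kind is common. Of the 3584 single-exon A5-KO PP peaks of 175 nt, 98.5% held DRACH on the RNA strand, against 94.9% of 424967 windows of that length in exons of the same genes outside peaks. GGAC, which is part of a DRACH site unless G follows, was in 57.3% of these peaks and in 36.9% of the windows.

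The first question was how much input stood behind the peaks. Peaks with few input reads, here under 10, made up 36.6% of the A5-KO PP list (20211 of 55219, Wilson 95% interval 36.2% to 37.0%), against 21.9% in WT PP and 6.31% in PP. No input read at all stood behind 13568 peaks, or 24.6%. Peaks with at least 50 input reads, called covered below, made up 44.1% (24347 peaks, 43.7% to 44.5%), against 58.1% in WT PP. The A5-KO PP peaks held 38575826 IP reads and 12716287 input reads, and those of WT PP 59982995 and 19034654. The depth inside peaks was thus lower in the knockout list than in WT PP. The PP list, with 29083 peaks, held fewer reads than either, 30944774 IP and 6987612 input reads. The part of depth in these shares was not tested. The IP reads of A5-KO PP lay almost wholly in the covered peaks, which held 92.0% of them, whereas the peaks with few input reads held 3.83%. Peaks on few input reads were thus many in number and held few of the reads. A median peak without input had 46 IP reads, and a median covered peak had 494.

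**Figure D1:**
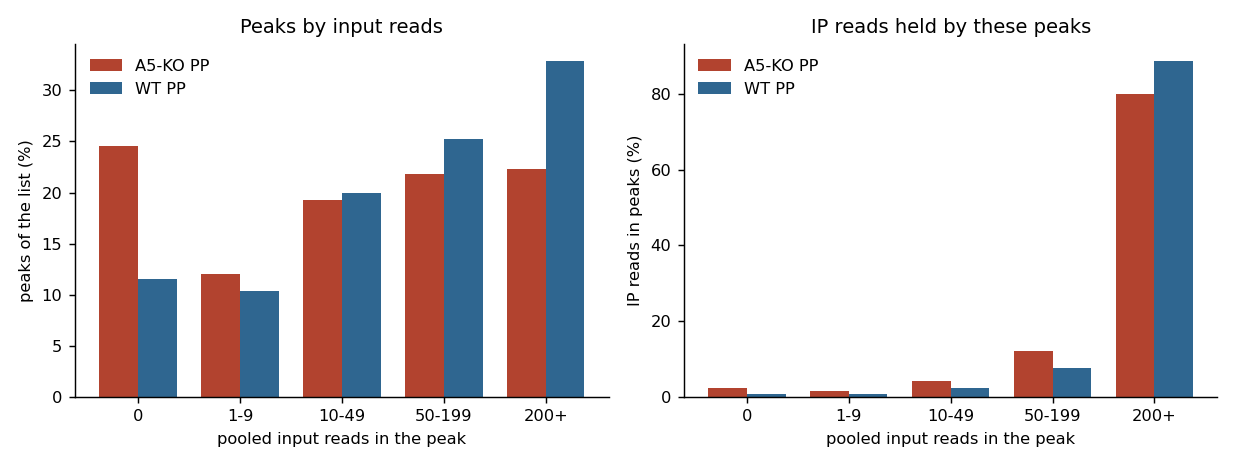
Left, share of peaks (%) by pooled input reads in the peak for A5-KO PP (red) and WT PP (blue); right, share of all IP reads in peaks (%) held by the same classes. Peaks without an input read are 24.6% of the A5-KO PP list but hold 2.27% of its IP reads, and peaks with 200 or more input reads are 22.3% and hold 80.0%.

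The deposited log2 enrichment of IP over input differed between classes of this coverage. Input reads are the denominator of this ratio, so a link between the ratio and the classes is partly built in. The median log2 enrichment was 9.38 for peaks with no input read, 5.84 with 1 to 9 reads and 3.87 with 10 to 49. It was 3.63 with 50 to below 200 and 3.77 with 200 or more. Among peaks without input the values fell into separate ranges, with 3638 peaks below 3, none from 3 to below 6 and 9930 at 6 or above. The lower range had a median of 27 IP reads (quartiles 24 and 31) and the upper range 57 (42 and 87), and the IP reads of the ranges overlapped. WT PP showed the same gap, with 1694 peaks below 3, none from 3 to below 6 and 3303 at 6 or above. A log2 enrichment of a peak without input had a median counting error of 2.05 on the log2 scale, against 0.13 for a covered peak, so the values of single peaks are given below mainly for covered peaks.

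**Figure D2:**
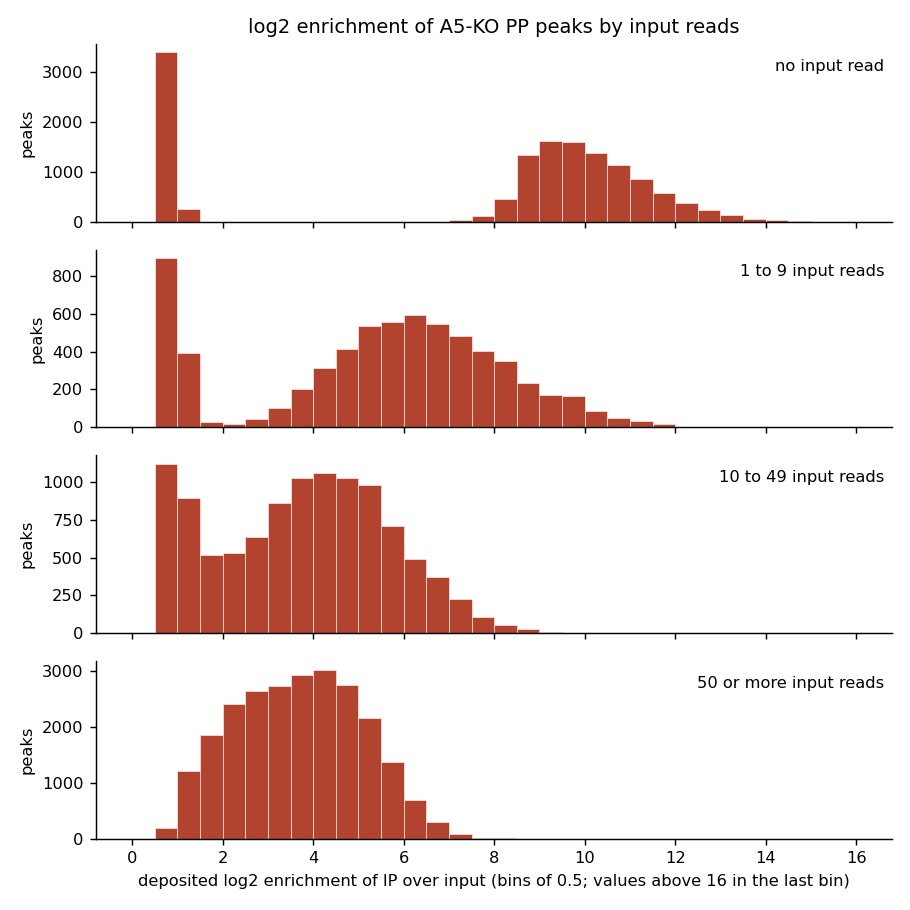
Number of A5-KO PP peaks by deposited log2 enrichment in bins of 0.5, from peaks without an input read (top) to peaks with 50 or more (bottom). Peaks without input form separate groups below 3 and above 6, and covered peaks form 1 group with a median of 3.70.

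The peaks lay on 20040 genes, and covered peaks on 12137 of them. For 4921 genes, or 24.6%, every peak had few input reads. Protein-coding genes and long noncoding RNA (lncRNA) genes differed in this. Of 13156 coding genes with a peak, 73.1% had a covered peak and 14.1% had only peaks with few reads, whereas of 5635 lncRNA genes 35.8% had a covered peak and 44.8% had only peaks with few reads. In WT PP 2325 lncRNA genes carried a peak, of which 53.1% had a covered one. The share of peaks on lncRNA genes was 32.6% among A5-KO PP peaks without input (31.8% to 33.4%) and 10.0% among those with 200 or more reads (9.52% to 10.6%). The share of lncRNA peaks thus moved with input coverage. It also stood above WT PP in every class of input. In WT PP it was 21.1% without input and 6.26% at 200 or more reads. Of all 18866 annotated lncRNA genes 10.7% had a covered peak in A5-KO PP, 2020 genes against 1234 in WT PP.

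Most genes carried few covered peaks. Of the genes with a covered peak, 52.6% had 1, 40.8% had 2 to 4 and 6.63% had 5 or more (805 genes). The number moved with gene size, and the median exonic length was 4072 nt for genes with 1 covered peak, 6306.5 nt for 2 to 4 and 10394.5 nt for 5 or more. TTN, the giant sarcomere protein titin, had 121 peaks, of which 48 were covered and 34 had few input reads. DST, a cytoskeletal linker protein, had 40 peaks with 30 covered, and AHNAK, a giant scaffold protein, had 28 that were all covered. KMT2D, a histone H3 lysine 4 methyltransferase, had 21 peaks with 19 covered, and CENPF, a kinetochore protein, had 20 with 18 covered. In WT PP the same genes had 67, 26, 21, 15 and 12 covered peaks in this order.

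Peaks with few input reads carried the m6A consensus at a density like that of covered peaks. DRACH sites numbered 22.5 per 1000 nt in peaks with few reads against 18.7 in exons of the same genes outside peaks, a ratio of 1.20 (95% counting interval 1.19 to 1.21). In covered peaks the ratio was 1.21 (1.21 to 1.22), with 22.3 sites per 1000 nt against 18.4. GGAC gave 1.42 (1.40 to 1.44) and 1.43 (1.42 to 1.45), and for both motifs the intervals of the classes overlapped. On the opposite strand, taken as a background, the DRACH ratio was 0.875 for few and 0.873 for covered. Sites of 1 transcript are not independent, and the interval leaves that out.

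The density of the motif differed more with the extent of a peak over exons than with its input. Peaks within 1 exon had a GGAC ratio of 1.56 (1.54 to 1.57) and peaks over several exons 1.30 (1.28 to 1.31). Within the single-exon peaks the ratio was 1.57 with few reads and 1.57 with coverage, and within the multi-exon peaks it was 1.31 in both. The DRACH ratio was 1.27 and 1.26 within the single-exon peaks, but within the multi-exon peaks it was lower with few reads, at 1.12 (1.11 to 1.13), than with coverage, at 1.15 (1.14 to 1.16). Peaks over several exons made up 38.2% of the A5-KO PP list (37.8% to 38.6%) and 22.7% of WT PP. Their share was 45.9% without input and 34.6% at 200 or more reads, so it stood above WT PP in every class of input, where it lay between 20.7% and 24.5%. In WT PP the multi-exon peaks had a GGAC ratio of 1.44 (1.42 to 1.47). By length, the GGAC ratio of A5-KO PP peaks was 1.37 up to 100 nt, 1.43 above 100 and up to 200 nt, 1.70 above 200 and up to 400 nt, and 1.40 above 400 nt.

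On the longest coding isoform 10384 of the 20211 peaks with few reads could be placed, and 17239 of the 24347 covered peaks, so a smaller part of the former is described here. Among the placed peaks the shares of the classes were similar. Of those with few reads 56.4% had their midpoint in the coding sequence (CDS) (55.4% to 57.3%), 37.3% in the 3UTR and 6.31% in the 5UTR. For covered peaks the shares were 56.6% (55.9% to 57.4%), 36.9% and 6.47%. Within 200 nt of the stop codon lay 17.3% of the few-read peaks (16.6% to 18.1%) and 18.5% of the covered ones (17.9% to 19.1%). Covered peaks in the 3UTR had a median log2 enrichment of 3.86, those in the CDS 3.67 and those in the 5UTR 3.35, while their median GC content was 45.0%, 48.6% and 56.5%. The part of GC in this order was not tested. Only 4.92% of the covered 3UTR peaks spanned several exons, against 40.6% in the CDS, and the 3UTR peaks were also found in WT PP more often, in 70.7% of cases (69.6% to 71.8%) against 58.1% (57.1% to 59.1%).

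Whether a peak was found in another list depended on its input. A peak counted as found when peaks of the other list overlapped over 50% of its exonic bases, strand included. Of the A5-KO PP peaks 36.9% without input, 41.8% with 1 to 9 reads, 46.0% with 10 to 49, 51.5% with 50 to below 200 and 56.2% with 200 or more were also in WT PP. In the PP list, from the other batch and protocol, the shares were 14.9%, 16.7%, 19.3%, 22.6% and 26.0% in the same order. The Wilson intervals of neighbouring classes did not overlap in either list. The number of exons moved the share further. Of the single-exon peaks 63.5% of the covered ones were in WT PP (62.8% to 64.3%) and 54.5% of those with few reads (53.6% to 55.4%). Of the multi-exon peaks the shares were 35.4% of the covered ones (34.4% to 36.4%) and 18.1% of those with few reads (17.3% to 18.9%).

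**Figure D3:**
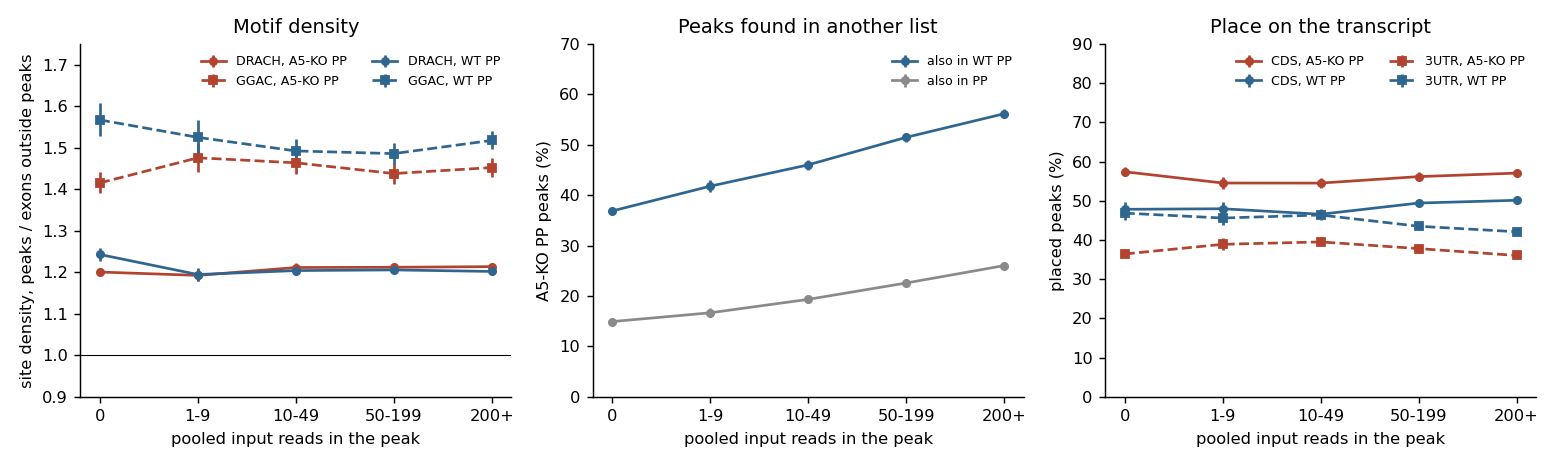
Properties of peaks by pooled input reads, with 95% counting or Wilson intervals as error bars: left, density of DRACH (circles) and GGAC (squares) in peaks divided by that in exons of the same genes outside peaks; middle, share of A5-KO PP peaks (%) also in WT PP or PP; right, share of placed peaks (%) in the CDS and 3UTR. The DRACH ratio of A5-KO PP stays between 1.19 and 1.21 and the CDS share between 54.5% and 57.4%, while the share found in WT PP goes from 36.9% to 56.2%.

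The reads were concentrated in few peaks. The top peak held 3.47% of the IP reads in peaks, the top 100 held 14.2% and the top 1000 held 36.9%, against 3.00%, 16.4% and 41.9% in WT PP. Some of these peaks had no counterpart in WT PP. The top peak, on 2 exons of the lncRNA gene ENSG00000251523 (chromosome 4, 98500192 to 98509896), had 1337918 IP and 174072 input reads in 175 nt and a log2 enrichment of 5.76, and no peak of this gene was in the WT PP or PP list. On USP9X, a deubiquitinase, a CDS peak of 50 nt held 132685 IP and 42008 input reads and overlapped no WT PP peak. On AHNAK2, a large scaffold protein, a 3UTR peak of 175 nt held 122476 IP and 54140 input reads, and the overlapping WT PP peak 14794 and 4266. ONECUT2 held 128940 IP reads in 11 peaks, all covered, and 171334 in 12 peaks of WT PP.

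The highest log2 enrichment of a covered single-exon peak was on ZNF326, a zinc finger protein, at 12.29 (counting error 0.18), with 39580 IP and 66 input reads in 75 nt of the CDS (chromosome 1, 90027646 to 90027720). In WT PP a neighbouring CDS peak (90027396 to 90027470) had 52888 IP and 290 input reads and 10.54. The WT PP peak that overlapped the A5-KO PP peak (90027621 to 90027745) had 203 IP and 235 input reads. STK38L, a protein kinase, followed at 11.03 with 13244 IP and 56 input reads in 75 nt (chromosome 12, 27302167 to 27302241), and the only WT PP peak of this gene lay in its 3UTR. The third was a longer 3UTR peak of 550 nt on BPNT2, at 8.56 with 4159 IP and 106 input reads. The lncRNA gene MIR99AHG, host of a microRNA cluster, held 81828 IP and 122 input reads in 1 peak over 2 exons, at 12.755, one of 13 peaks of this gene, to which WT PP assigned none.

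Genes were then read by role, with the share of few-read peaks beside each group. Over all genes 36.6% of the peaks had few input reads, on coding genes 30.9%. Of all 20046 annotated coding genes 48.0% had a covered peak in A5-KO PP and 65.6% had any peak. Counts of group members are given against these shares and are not tests, and a missing peak can mean an unexpressed transcript, an unmethylated one or too few reads, which cannot be told apart here. A value given for a peak after its reads is the deposited log2 enrichment.

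Most factors that define pancreatic progenitors carried a peak. Of 22 factors 21 had a peak and 19 a covered one, with 14.1% of their 92 peaks on few input reads, against 20 factors with a covered peak and 11.4% in WT PP. PDX1, the master regulator of the pancreas, had 4 peaks with 7019 IP and 2494 input reads, all covered. The CDS peak shown above held 4139 IP and 1081 input reads at 2.68 (counting error 0.05), and the 3UTR peaks lay between 2.12 and 4.24. In WT PP PDX1 had 2 covered peaks with 3275 IP and 1255 input reads, at 3.16 and 3.66. SOX9, which marks the bipotent progenitor, had a 5UTR peak with 14389 IP and 5661 input reads at 2.68 and a CDS peak with 16896 and 3860 at 3.53, while its 3UTR peak had 46 IP reads and no input. In WT PP the same 5UTR stretch held 73403 IP and 19753 input reads at 3.19. The WT PP peak that overlapped the CDS peak, 800 nt long, held only 520 and 127 at 4.04.

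NKX6-1, needed for the beta cell lineage, differed between the lists in where its peaks lay. In A5-KO PP it had 3 peaks, all in the 3UTR, with 809 IP and 592 input reads and log2 enrichments of 3.16, 2.50 and 1.61. In WT PP it had 5 peaks with 7011 IP and 2744 input reads, and 3 of these were placed in the CDS. FOXA1, a pioneer factor of the endoderm, had 1 covered peak, over 2 exons of the CDS, with 48990 IP and 5919 input reads at 5.85 (WT PP 73391 and 6951 at 6.03). FOXA2 had a CDS peak with 23568 IP and 3968 input reads at 3.62. GATA4 had 6 covered peaks between 2.36 and 5.94, and GATA6 1 with only 109 IP and 91 input reads. HNF4A and GLIS3, which act in hepatic and in endocrine development, had 5 and 7 covered peaks, PROX1 5 and TCF7L2, the effector of Wnt signaling, 4. RBPJ, the DNA-binding partner of Notch, had 4 peaks but no covered one, with 31 input reads in all, and NKX2-2 had no peak.

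Of markers of neighbouring and other fates, the share of endocrine genes with a covered peak lay below the 48.0% of all coding genes, and the other groups lay between 3 of 8 and 58.3%, on either side of that share. Of 20 endocrine genes 8 had a peak and 5 a covered one, and 63.2% of their peaks had few reads. In WT PP 7 had a peak and likewise 5 a covered one, with 33.3% of the peaks on few reads. In PP 5 also had a covered peak. In A5-KO PP INS, GCG, SST and NEUROG3 had no peak. Among the covered ones were CHGA, a granule protein, with 2955 IP and 2105 input reads, and GHRL, the ghrelin gene, with 2751 and 1639 and no peak in WT PP. Of 18 hepatic genes 12 had a peak and 8 a covered one, against 11 in WT PP, with 10 of 36 peaks on few reads. FGG, the fibrinogen gamma chain, had 37687 IP and 45854 input reads in 4 covered peaks, and 39340 and 23641 in WT PP, while ALB, APOA1 and RBP4 had no peak. Intestinal genes had a covered peak in 5 of 10 cases, with 55.0% of the peaks on few reads, pluripotency genes in 4 of 10 (POU5F1, NANOG and SOX2 had none), definitive endoderm genes in 3 of 8, mesenchymal genes in 7 of 12 and neural genes in 4 of 8. In WT PP these numbers were 3, 3, 5, 4 and 5. Few reads lay under 6 of 18 pluripotency peaks, 7 of 11 definitive endoderm peaks, 6 of 21 mesenchymal peaks and 9 of 17 neural peaks.

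The m6A machinery itself carried peaks. All 9 writers had a peak and 8 a covered one, with 20.5% of 44 peaks on few reads and a median log2 enrichment of 4.03 over covered peaks, against 3.70 over all covered peaks of the list. METTL3, the catalytic subunit, had a CDS peak with 1508 IP and 294 input reads at 4.97 in A5-KO PP (chromosome 14, 21503095 to 21503369) and with 966 and 398 at 3.37 in WT PP. Of the 19 pairs of overlapping peaks on writers that were covered in both lists, 2 were higher in A5-KO PP and 5 lower by 1 or more, with a median difference of -0.25. Among the lower ones were VIRMA, with peaks at 2.26 against 6.53 and 1.39 against 3.88, and WTAP, at 2.78 against 6.01, while another WTAP peak was at 3.73 against 1.37. ZC3H13 had 8 covered peaks with WTAP at 4 and VIRMA at 7, all of them regulatory subunits. RBM15B, an RNA-binding adaptor, held 101671 IP and 15211 input reads in a 3UTR peak of 250 nt at 5.54, where WT PP had 121 IP reads and no input read in an overlapping peak. Its paralog RBM15 differed the other way, with 74 IP reads and no input in A5-KO PP and 15794 and 3236 in WT PP.

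Readers had a peak in 11 of 12 cases and a covered one in 10. Of their peaks 35.0% had few reads, near the 30.9% on all coding genes, and in WT PP 12.5%, where the share on all coding genes was 19.3%. YTHDF1 had 5 covered peaks, YTHDF2 and YTHDF3, which promote mRNA decay, had 3 each, and IGF2BP1 had only 1 peak, with 30 IP reads and no input. In the AlkB family all 9 genes had a peak and 4 a covered one (44.4%, near the 48.0% of coding genes), with 42.9% of the peaks on few reads, and 7 had a peak with at least 10 input reads. ALKBH5 itself had 5 peaks with 592 IP reads and 1 input read, against 836 and 289 in 4 peaks of WT PP. Of the WT PP input reads 288 lay in 1 peak. Whether the indels change the level of the transcript was not tested, so these reads are no check of the label. FTO had 2 covered peaks of 7, at 1.20 and 1.84. ALKBH2, a DNA repair enzyme, had 74 IP reads and no input in A5-KO PP and 78570 IP and 31311 input reads in WT PP.

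For signaling and chromatin genes the shares with a covered peak lay above the 48.0% of coding genes. A covered peak was on 16 of 26 Notch genes (29.3% of their peaks with few reads), 23 of 30 Wnt genes (25.9%), 25 of 30 genes of the TGF-beta and BMP pathway (25.5%), 31 of 34 chromatin regulators (19.2%) and 17 of 18 immediate early and MYC genes (12 of 63 peaks). In WT PP the numbers were 22, 24, 24, 30 and 15 in the same order. MAML2 and MAML3, coactivators of Notch, had 8 and 7 covered peaks, against 1 and 4 in WT PP. FZD5 and FZD7, Wnt receptors, had 3 and 5 covered peaks, against 7 and 2. ID1 and ID2, early targets of BMP, had 2 each. KMT2A and ARID1A, a methyltransferase and a subunit of the BAF remodeler, had 14 and 11.

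Of genes known for short, abundant transcripts, 15 of 86 cytoplasmic ribosomal protein genes, 18 of 84 respiratory chain genes and 8 of 73 histone genes had a covered peak, against 26, 28 and 14 in WT PP. Of their peaks 16 of 51, 13 of 46 and 12 of 25 had few reads. Of 12 reference housekeeping genes 6 had one, close to the 48.0% of coding genes, with 4 of 14 peaks on few reads, and GAPDH had no peak. ACTB had a peak over 3 exons with 7296 IP and 3122 input reads at 3.45, for which WT PP had 173 and 31 at 2.21. Of 16 genes of alpha-ketoglutarate metabolism, the cofactor of the AlkB enzymes, 7 had a covered peak (43.75%, near the 48.0% of coding genes). Among them were GPT2 with 4, OGDH and GLUD1, and 3 of 18 peaks of the group had few reads. Of 508 ZNF-named zinc finger genes 334 had one, with 32.6% of 1756 peaks on few reads and a median log2 enrichment of 4.03. Of 16 known lncRNA genes 9 had a covered peak (56.25%, against 10.7% of all annotated lncRNA genes). Few reads lay under 56 of their 123 peaks (45.5%, against 55.9% of the peaks on all lncRNA genes). KCNQ1OT1, the antisense RNA of an imprinted domain, carried 50 peaks, 12 of them covered and 24 on few reads.

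For peaks with a counterpart in WT PP the levels were compared on the authors' log2 scale, which was set separately in each list. Over 9252 pairs that were covered in both lists the median difference, A5-KO PP minus WT PP, was 0.0052, and 22.7% were higher and 21.4% lower by 1 or more. By place, 793 of 3178 3UTR pairs were higher and 20.2% lower, and 20.4% of the CDS pairs were higher and 22.0% lower. Of the 413 5UTR pairs 24.5% were higher and 17.9% lower. For lncRNA genes the shares were 25.8% and 31.6%. The progenitor factors had 51 such pairs on 17 genes with a median difference of -0.10, of which 7 were higher and 9 lower by 1 or more, or 13.7% and 17.6%, against 22.7% and 21.4% over all pairs.

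Single factors had peaks on either side. PROX1, a regulator of progenitor growth, had a CDS peak at 4.74 in A5-KO PP (6431 IP and 1530 input reads) and 2.67 in WT PP (960 and 702), but another at 1.42 and 3.72. HNF4A had a peak at 1.64 (516 and 679) that overlapped a WT PP peak at 5.09 (8103 and 1015) and 1 at 5.06 against 2.08. An ONECUT2 peak of the CDS was at 1.12 (19892 and 15198) and 3.95 (3154 and 359). PDX1 had 3UTR peaks at 2.12 against 3.16, at 4.05 against 3.16 and at 4.24 against 3.66. NKX6-1 had 3UTR peaks at 3.16 and 1.61, both against 1 WT PP peak at 4.28, and MNX1, a homeobox factor, had a 5UTR peak at 4.46 against 2.04. Several A5-KO PP peaks could lie in 1 longer WT PP peak, so the pairs compare stretches of unequal length.

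**Figure D4:**
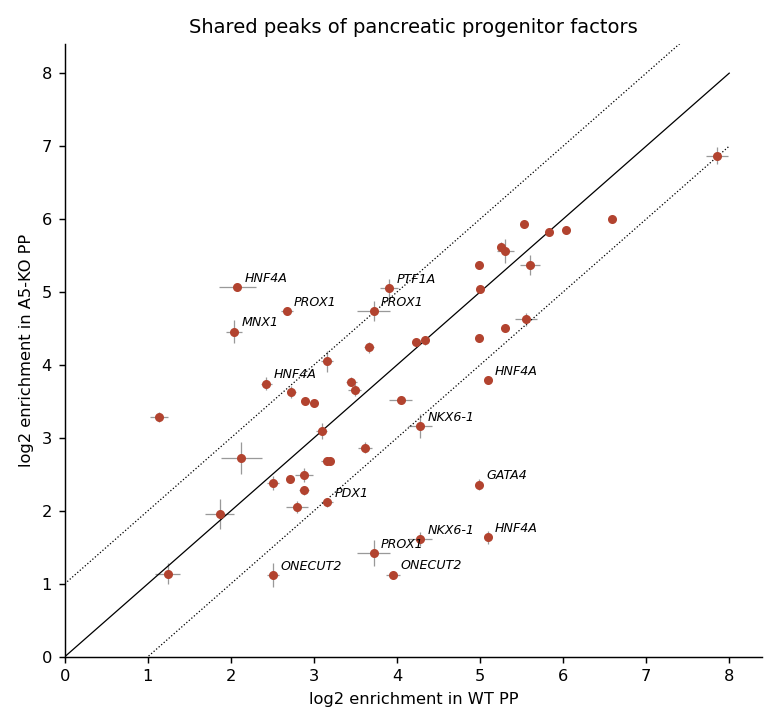
log2 enrichment of 51 pairs of overlapping peaks on pancreatic progenitor factors in A5-KO PP (vertical) and WT PP (horizontal), each covered in both; bars are the counting error, the solid line marks equal values and the dotted lines a difference of 1. Of the 51 pairs 35 lie within the dotted lines, 7 above and 9 below, and most of the latter 16 are labelled by gene.

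The counts of other groups stand beside the 22.7% higher and 21.4% lower over all pairs, which became 24.1% and 15.6% with 1 offset per list. Of 25 pairs on Notch genes 9 were higher and 2 lower by 1 or more. Of 102 pairs on chromatin regulators 15.7% were higher and 32.4% lower, and of 374 pairs on ZNF-named genes 28.3% and 22.7%. Among 12 hepatic pairs 5 were higher and 2 lower. FGG had 1 pair at 3.95 in A5-KO PP and 1.95 in WT PP, and another at 3.89 and 4.03. Of 16 pairs on known lncRNA genes 1 was higher and 7 lower, of 18 on immediate early and MYC genes 4 and 8, and of 9 on respiratory chain genes 2 and 5. Wnt genes had 5 higher and 2 lower of 29, TGF-beta and BMP genes 7 and 5 of 34, and cytoplasmic ribosomal protein genes 3 and 0 of 16. Pluripotency genes had 2 higher and 3 lower of 9 and readers 1 and 2 of 8, and, beside the progenitor factors and writers given above, each remaining group had at most 5 pairs. The largest single-exon difference upward was 9.77, on ZNF326, and it rests on which WT PP peak overlapped. That peak had 203 IP reads, while the neighbouring WT PP peak described above had 52888, and over all peaks of the gene A5-KO PP had 39753 IP reads and WT PP 53166. RPL37A, a ribosomal protein gene, was at 6.24 (1974 IP and 212 input reads) and 0.89 (135 and 81) in a peak of 175 nt with the same limits in both lists, and RYK, a Wnt co-receptor, at 6.26 and 1.08. Downward, ZNF609 was at 1.07 and 6.67 and EXTL2 at 1.18 and 6.52. All differences of 1 or more exceeded their 95% counting interval, which does not hold the spread between cultures.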

How the data were processed

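Per the labels and methods, the authors used fastp for trimming and HISAT2 for alignment to GRCh38, with 1 reported alignment for each read. They ran exomePeak2 on all libraries of a population together. The deposited columns used are counts of IP and input reads per peak, pooled over libraries (sum or mean not stated), the log2 enrichment of IP over input (set in each list separately) and the p-value of exomePeak2. The authors' p-values served only as a threshold in an alternative. Library totals were not used here, so depth is given by reads in peaks.

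Deposited spans were reduced to the exons of their gene in GENCODE 44 with python 3.11.15 and pysam 0.24.0. Of the A5-KO PP peaks 99.2% lay on exons of their assigned gene. In multi-exon peaks 91.2% of the exonic lengths, against 3.83% of the spans, were multiples of the 25 nt step of the caller. Shares have Wilson 95% intervals, and ratios of site densities have 95% intervals from the number of sites. Counting errors were computed from both counts, each with 0.5 added. PCR copies are not independent molecules, so intervals and errors cover counting only. Of the peaks 16.0% were assigned by the authors to several overlapping genes, and their gene is uncertain; reads of 1 alignment can also fall on near-identical copies. The middle 32 nt of the longest exonic block occurred more than once in the genome for 6.17% of the peaks.

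Named genes were, by rule, up to 4 members with the most input reads per group, the members of the progenitor, AlkB, writer and reader groups, and the top 5 by covered peaks, IP reads (also of lncRNA genes), enrichment and difference between lists, without genes that tell sex. The text gives part of them, since some items are not reported here, and some further genes as examples chosen after their values were seen. The members and the 23 groups were chosen with earlier results of these data known. The overlap, motif and interval steps were tested on simulated data. No test between populations was run, since no value per library was analysed here.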

Additional observations from a re-analysis of the deposited data

How the results depend on the processing

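No paired analysis was possible because the peak counts are pooled over libraries, so the planned fits with a replicate block and without 1 replicate were not run. The share of peaks with few input reads was 31.3% below 5 reads, 43.7% below 20, 31.2% at p below 1e-05 and 32.9% at an IP/input ratio of at least 3. The motif ratio of few and covered peaks was 1.42 and 1.43 for GGAC and 1.37 and 1.36 for DRACH against the opposite strand. The CDS share was 64.6% and 66.3% by any overlap and 43.4% and 46.2% in single-exon peaks. The share in WT PP was 43.1% and 59.1% by any overlap and 25.8% and 35.2% with over 50% of both peaks, and in PP 22.5% and 34.6%, and 11.2% and 18.3%. Few-read peaks thus stayed less often shared than covered ones under each overlap rule. At pairs, the median difference was 0.20 with 1 offset per list, -0.022 at 200 input reads, 0.24 with no minimum and 0.034 for single-exon peaks. The share higher and lower by 1 or more was 24.1% and 15.6%, 16.5% and 16.8%, and 37.99% and 28.9% under the first 3 of these settings, so the balance of higher and lower depended on scaling and coverage. Genes with 5 or more peaks were 10.2% at 10 input reads and 2.47% at 200. Of the 23 groups, only the AlkB family, with 7 genes at 10 reads in place of 4, moved by over 1.5 times. The motif by length and exon number was added after seeing the data.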
